A study of Mus musculus with 12 samples.

Results

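The sites described here are isolated differentially methylated CpGs inside mid-length genes. Each is a single CpG from the authors' deposited table of differences between dendritic cells of offspring from exposed and unexposed mothers. A site was taken if the longest RefSeq protein-coding span holding it was over 50 kb and at most 200 kb long. It also had to have no other row of the table within 100 bp, and to lie outside the windows from 1000 bp beyond to 100 bp inside either end of a protein-coding or long noncoding RNA gene. Of the 2798 sites in the table, 380 met these rules, in 326 genes. The rule used position and gene length and made no use of the size or sign of a difference.

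DNA was profiled by reduced representation bisulfite sequencing (RRBS), which reads CpG-rich fragments after bisulfite treatment. The cells were splenic CD11c dendritic cells of female first-generation C57BL/6 mice immunised with OVA, and the mice whose mothers had received corn oil carry that immunisation too. The mothers received di(2-ethylhexyl) phthalate (DEHP, a plasticiser) at 37 µg per kg per day or vehicle for 10 days and were mated with untreated males. The labels place 6 libraries in the maternal DEHP group and 6 in the maternal corn oil group. Purchased mice were 6 to 8 weeks old. The extraction note also names spleen tissue. For the offspring's age, the number of mothers or litters behind the libraries, and whether a library came from 1 animal, the sources used here give nothing.

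The tables hold the authors' difference, p-value and q-value for each site and no value for a library. No level of methylation, spread between libraries, or read depth is therefore known for any site, and no test between groups was made. Whether the deposited p-values allow for variation from mother to mother is unknown. The table holds no expression values, so the labelled cell type was not checked against markers. A positive difference is read as a gain, that is, higher methylation in the maternal DEHP group, and a negative one as a loss. The table does not state which group was subtracted. Every site differed by at least 25.005 percentage points, so smaller differences are not in the table, and a gene without a site may have had no covered CpG.

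Most CpGs in the bodies of mammalian genes are methylated in most cell types, while CpG islands at promoters are mostly free of methylation. Between the ends of a gene lie exons and introns, and the introns of longer genes can hold enhancers and alternative promoters, at which methylation is often lower. The gene table used here gives spans without exons, so whether a site is exonic, intronic or in a UTR is not stated for any of them.

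Of the 380 sites, 3 lay inside the window before an alternative start that RefSeq annotates within their own host gene. These are the only sites of the set for which sequence was at hand, and being next to an annotated start they do not stand for the other sites. The windows are from RefSeq on GRCm38.p6, written 5′ to 3′ along the gene from 250 bases before the start, and capitals mark the CpG in the deposited table.

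Arhgef2, chr3:88615893-88616142, plus strand: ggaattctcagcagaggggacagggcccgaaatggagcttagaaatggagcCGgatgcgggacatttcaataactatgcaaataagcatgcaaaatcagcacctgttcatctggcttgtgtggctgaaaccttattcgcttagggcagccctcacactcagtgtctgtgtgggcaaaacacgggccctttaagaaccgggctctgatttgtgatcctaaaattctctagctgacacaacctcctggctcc
Srpk2, chr5:23676460-23676710, minus strand: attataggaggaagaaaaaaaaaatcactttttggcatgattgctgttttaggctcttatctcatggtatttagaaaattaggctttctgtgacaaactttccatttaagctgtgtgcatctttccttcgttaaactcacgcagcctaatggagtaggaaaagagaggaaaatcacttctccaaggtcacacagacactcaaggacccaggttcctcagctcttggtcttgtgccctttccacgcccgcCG
Prom1, chr5:44101737-44101986, minus strand: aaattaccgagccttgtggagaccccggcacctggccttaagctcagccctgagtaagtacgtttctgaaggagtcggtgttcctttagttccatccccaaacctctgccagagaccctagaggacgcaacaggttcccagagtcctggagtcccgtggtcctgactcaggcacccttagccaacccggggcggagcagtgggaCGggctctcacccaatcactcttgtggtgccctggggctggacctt

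Arhgef2 encodes a microtubule-associated activator of a small GTPase, and its site, 199 bases before the alternative start, had a loss of -26.2 percentage points in the deposited table. In Prom1, which encodes the membrane glycoprotein prominin-1 (CD133), the CpG lay 46 bases before the start and the loss was -28.9 points. In Srpk2, which encodes a kinase of splicing factors, the C of the CpG was the last base before the start and the site had a gain of 30.2 points. The 250 bases before these starts held 6 CpGs (Arhgef2), 4 (Srpk2) and 9 (Prom1), where the median over all 32851 RefSeq start windows was 6. Their GC content was 50%, 42.4% and 59.2%, beside a median of 52.4%. The tetramer CCGG, the recognition sequence of MspI, the enzyme most used for RRBS, was found 2 times in the stretch before the start for Arhgef2 and for Prom1 and 0 times for Srpk2. At least 1 CCGG stands in 47.1% of all such stretches. The Arhgef2 and Srpk2 CpGs were themselves the centre of a CCGG, the latter spanning the start, while the nearest one to the Prom1 CpG was 18 bases away. A GC box (GGGCGG, both strands searched) stood in the Prom1 stretch alone and in 32.7% of all stretches. CCAAT on either strand was likewise found there alone, against 33.8% of all, and TATAAA was in none of the 3 and in 12.4% of all. Over the whole table, 74 sites lay in such windows, and in 79 of 79 matches of a site and a window the bases at the deposited position were CG.

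Gains and losses were nearly equal in number. Of the 380 sites, 193 had a gain and 187 a loss in the deposited table, a share of 50.8% with gains (exact Clopper-Pearson 95% interval 45.6 to 55.9). Over all 2798 sites the shares were 48.4% gains and 51.6% losses. Isolated sites inside short genes (at most 50 kb) had 47.5% gains (209 of 440), and those inside very long genes (over 200 kb) 42.7% (109 of 255, interval 36.6 to 49.1). The intervals cover counting error over sites only. Sites of a table share their libraries, so the shares were set side by side and their difference was not tested.

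Most differences lay near the minimum of the table. The median absolute difference was 29.5 percentage points, with the middle 50% of sites between 26.9 and 33.1. Of the 380 sites, 204 (53.7%) differed by under 30 points, where 60.6% of the whole table did, 160 differed by 30 to 40 points, and 16 (4.21%) by 40 points or more, where 5.43% of the whole table did. Of those 16, 9 were gains and 7 losses. Median absolute differences were 28.5 points inside short genes, 29.0 inside very long genes and 28.1 outside protein-coding spans. The deposited q-value was 0 for 266 of the 380 sites, and the largest was 3.32e-06.

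**Figure D1:**
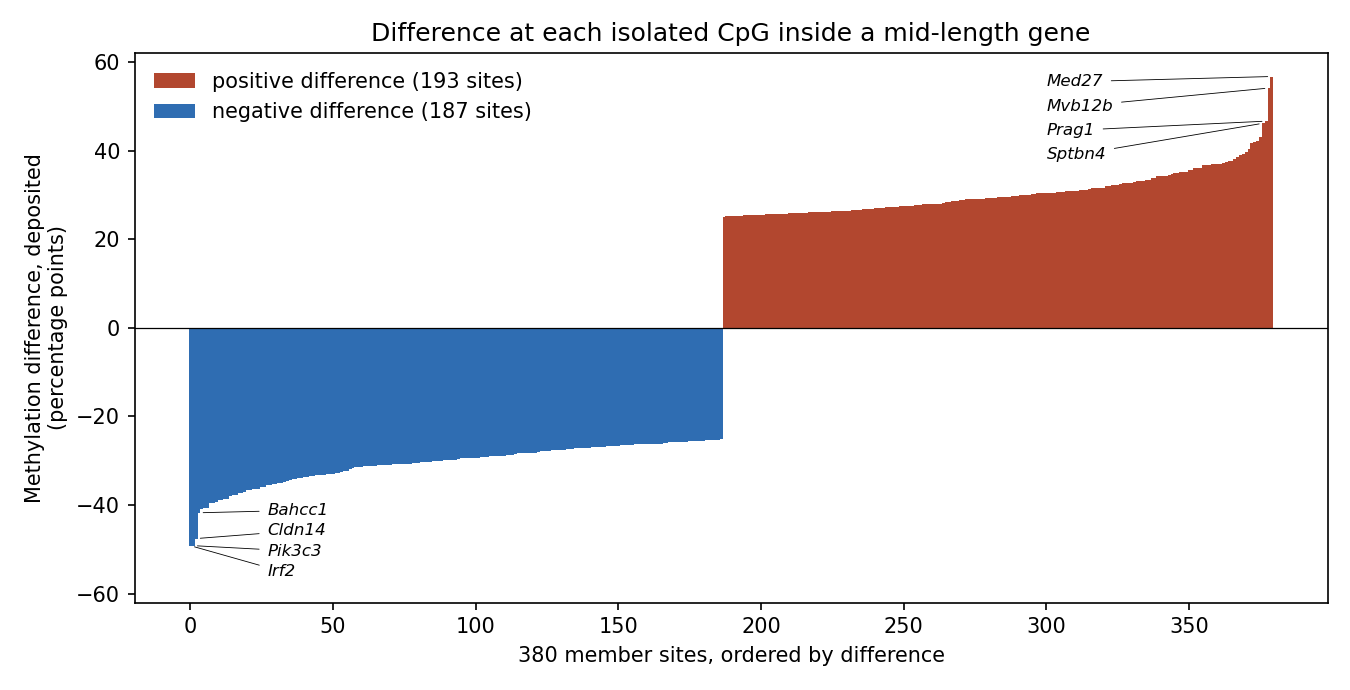
Deposited methylation difference in percentage points (y axis) of each of the 380 isolated sites inside mid-length genes, ordered from the largest loss to the largest gain (x axis), 1 bar per site. The 187 losses and 193 gains mirror each other, and the named extremes are Med27 (56.7) and Irf2 (-49.2).

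The largest gain was in Med27, which encodes a subunit of Mediator, the complex that links transcription factors to RNA polymerase II. Its site at chr2:29450388 differed by 56.7 percentage points and lay 58.2% of the way along a span of 178 kb. The next was Mvb12b, which encodes a component of the ESCRT-I sorting complex, with 54.1 points at chr2:33731447, close to the 3′ end of the gene (99.1% of the span). In the deposited table Prag1, a pseudokinase scaffold gene, followed with 46.6 points, and Sptbn4, the spectrin gene of the axon initial segment, with 46.2 points. Sptbn4 held another gain of 25.6 points, 19434 bp away. Hspg2, which encodes the basement membrane proteoglycan perlecan, gained 43.1 points at chr4:137484149. Cdh6, a cadherin gene, gained 42.1 points at chr15:13110962.

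Among the other large gains were Tpcn2, which encodes an endolysosomal cation channel (41.8 points), and Spsb1, which encodes a SOCS-box adaptor of a ubiquitin ligase (41.8 points). Nlrp14, a NOD-like receptor gene known from germ cells, had 40.4 points in the deposited table. Zfr encodes a zinc-finger RNA-binding protein and gained 39.6 points, at a position that also lies in the span of the pseudogene Gm2573. Tex14, which encodes a protein of germ cell bridges, gained 39.1 points at one site and held a loss of -25.5 points 23747 bp away. The importin gene Ipo11 gained 39.1 points. Hsf2bp, a meiotic recombination gene, gained 38.6 points, Mroh1 38.1 points, and the integrin beta chain gene Itgb3 37.7 points. Of these genes, Nlrp14, Tpcn2, Hsf2bp and Mroh1 each held a loss within 150 bp of the gain (described with the pairs).

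The largest loss was in Irf2, which encodes an interferon regulatory factor, a transcription factor of the interferon response. Its site at chr8:46761010, 19.7% of the way along a span of 108 kb, differed by -49.2 percentage points in the deposited table. Pik3c3, which encodes the lipid kinase Vps34 of autophagy and endosomal traffic, followed with -49.2 points at chr18:30271238. The tight junction gene Cldn14 stood at -47.6 points at chr16:93919715. Bahcc1, a gene for a protein with a BAH domain, stood at -41.7 points, with another loss of -30.1 points 159 bp away. Kansl1, which encodes a scaffold of the NSL histone acetyltransferase complex, stood at -40.9 points at a CpG only 0.110% into its span, just past the excluded gene-end window. Scarb1, the gene of the HDL receptor SR-B1, stood at -40.8 points.

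Rnf43, which encodes a ubiquitin ligase that removes Wnt receptors from the cell surface, stood at -40.6 points in the deposited table. Arhgap31, a gene for a GTPase-activating protein of Cdc42 and Rac1, stood at -39.5 points at one site and gained 27.97 points at another 24247 bp away. Grhl2, a grainyhead-like transcription factor gene of epithelia, likewise held a loss of -39.5 points and a gain of 35.5 points, 12119 bp apart. Myo10, the gene of a filopodial myosin, stood at -39.3 points, and Tcf20, a transcriptional coregulator gene, -38.8 points. Tshz3, a zinc-finger factor gene, stood at -38.8 points, with a gain of 26.2 points 307 bp away. Losses of -38.7 points stood at Parpbp, whose product binds PARP1, of -38.6 points at Rec114, a gene of meiotic break formation, and of -37.9 points at Pik3r5, which encodes a regulatory subunit of the phosphoinositide 3-kinase of leukocytes. At the other end of the range, the sites nearest the minimum of the table were in Ass1 (25.006 points), Cabcoco1 (-25.006), Arhgef10l (25.1) and Dhx57 (25.2).

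A mid-length gene held such a site in 326 of 3951 cases, which is 8.25% of the mid-length protein-coding genes on the autosomes and the X chromosome. A gain was held by 4.58% of these genes and a loss by 4.56%. Within the mid-length range the share of genes with a site was 7.65% (122 of 1594) at 50 to 75 kb, 6.96% (64 of 920) at 75 to 100 kb, 8.99% (87 of 968) at 100 to 150 kb and 11.3% (53 of 469) at 150 to 200 kb. Neighbouring bins had overlapping exact intervals, for example 6.40 to 9.07% and 5.40 to 8.80% for the first pair. Per length the order ran the other way. There were 14.4 sites per 10 Mb of summed span at 50 to 75 kb, 9.40 at 75 to 100 kb, 8.97 at 100 to 150 kb and 7.45 at 150 to 200 kb. Genes over 200 kb had 6.01 sites per 10 Mb and genes of 10 to 50 kb had 16.1. The share with gains was 51.4%, 50.7%, 50.5% and 50% in the 4 mid-length bins. Which CpGs could have been called in each gene is not in the tables, so the part of CpG coverage in these densities was not tested.

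**Figure D2:**
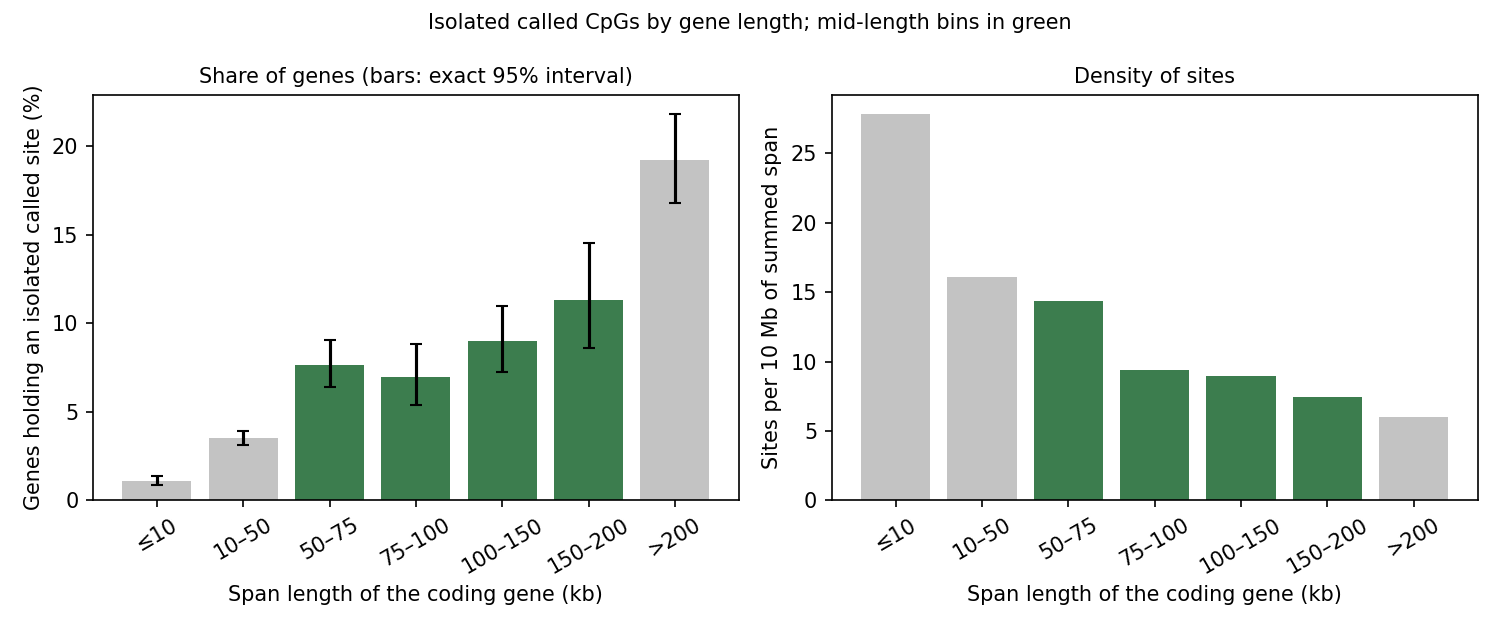
Left, share of protein-coding genes (y axis, %) with an isolated called site inside, by span length (x axis, kb), with exact 95% intervals; right, isolated sites per 10 Mb of summed span for the same bins. Mid-length bins (green) fall between short and very long genes on both scales: the share of genes was highest above 200 kb (19.2%), while the density was highest in genes of at most 10 kb (27.8).

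At the lower bound of length, the hosts just inside were Ncs1 (50.3 kb, 33.0 points) and Ass1 (50.4 kb, 25.006 points), and those just outside were Rusc2 (-25.4 points) and Agap3 (-30.9 points). At the upper bound, Rtn1 (25.3 points) and Gpr39 (-25.6 points) were just inside and Pcbp3 (-27.4 points) and Tspear (25.4 points) just outside. The closest row to any site of the set was 114 bp away, in Lima1. Of sites that differed from the rule only in having a nearer row, the widest spacing was 97 bp, in Slc7a2 (-27.8 points).

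Sites lay along the whole length of their genes, with more of them toward the ends. The direction of transcription was known from RefSeq for the hosts of 303 sites. From the 5′ end, successive stretches of 20% of the span held 68, 48, 45, 59 and 83 sites, that is 22.4%, 15.8%, 14.9%, 19.5% and 27.4%. The exact interval of the last stretch (22.4 to 32.8%) did not reach that of the middle one (11.04 to 19.4%). Which CpGs could have been called in each stretch is unknown, so the part of CpG coverage in these counts was not tested. Gains made up 48.5%, 56.2%, 55.6%, 40.7% and 57.8% of the sites in these stretches, all with intervals that overlap, and no difference between stretches was tested. The median absolute difference stayed between 29.2 and 29.6 points. Among the named sites near a 5′ end were those in Kansl1 and in Synj2, an inositol phosphatase gene (0.243% of the span, a gain of 30.3 points). Near a 3′ end stood Foxp4, a forkhead factor gene (99.6% of the span, a loss of -37.7 points), Cldn14 (99.2%) and Mvb12b.

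**Figure D3:**
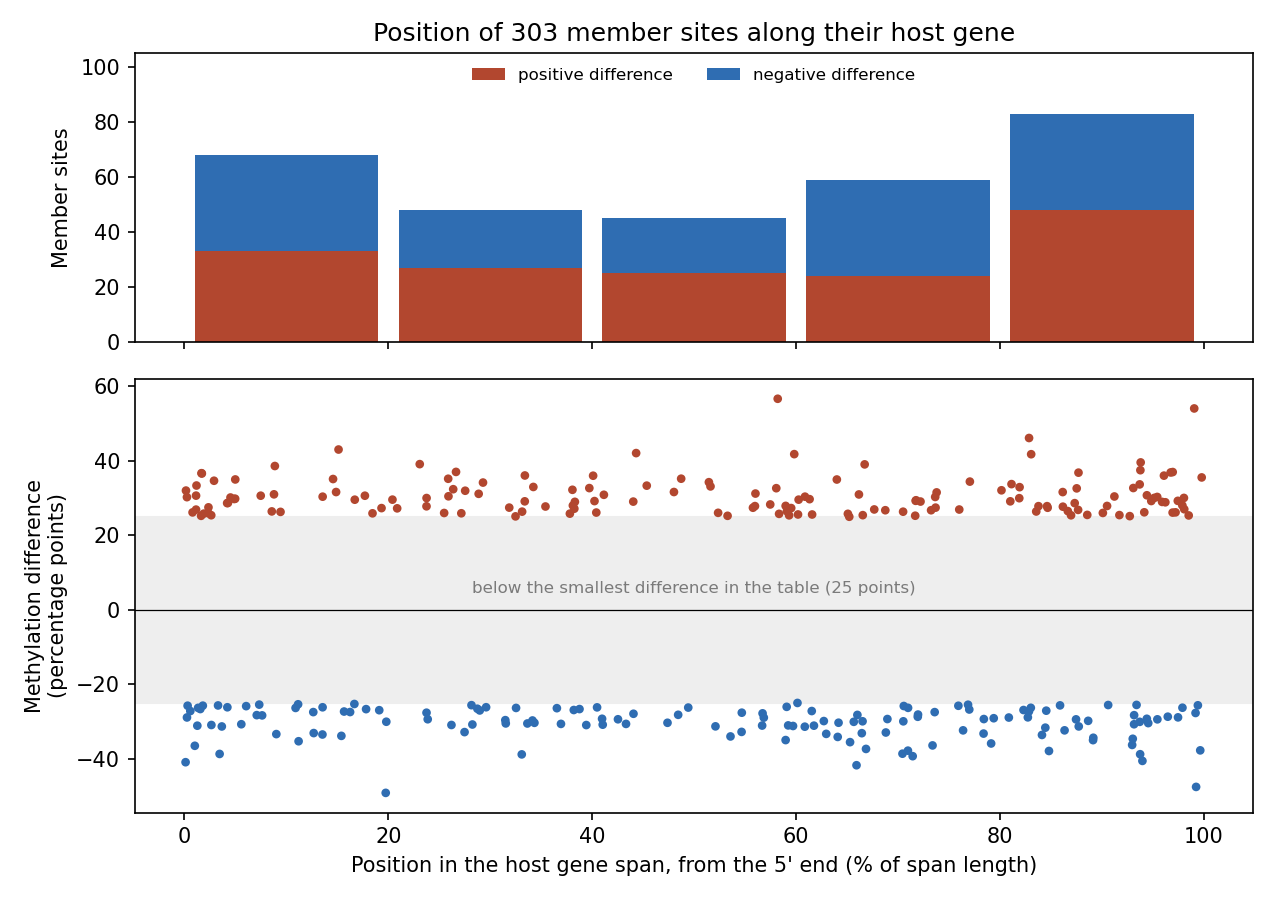
Top, number of gains and losses in each 20% of the host gene, counted from the 5′ end; bottom, the deposited difference of each of the 303 sites (y axis, percentage points) against its position as a percentage of the span (x axis). The last 20% holds 83 sites and the middle 20% holds 45, and large differences occur at both ends and in between.

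Sites were found on every autosome and on the X chromosome. Chromosomes 15 and 11 had the highest share of mid-length genes with a site, 16.0% (23 of 144) and 13.7% (30 of 219). Chromosome 18 had the lowest, 5.19% (8 of 154), where the share over all mid-length genes was 8.25%. Which CpGs could have been called on each chromosome is unknown, and no difference between chromosomes was tested. On the X chromosome 13 of 171 mid-length genes (7.60%) held 1 site each, 6 gains and 7 losses. Of the 380 sites, 6 lay in more than 1 protein-coding span, among them those in Gpr39 and Chat. Another 23 lay over a noncoding feature as well, 15 of them over a long noncoding RNA and 8 over a pseudogene. For Usp32, Elf1, Zfr, Igsf11 and the other sites over a pseudogene, whether reads of a similar copy contribute was not tested. Only 11 host genes held further rows of the table that were not isolated or lay near a gene end, such as Gnas (5 further rows).

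Of the 326 host genes, 276 held 1 site, 46 held 2 and 4 held 3. In 146 genes there were gains alone, in 145 losses alone and in 35 both. Among the 50 genes with at least 2 sites, 10 had gains alone, 5 losses alone and 35 both. These genes give 54 pairs of adjacent sites, of which 35 went in opposite directions and 19 in the same direction (Clopper-Pearson intervals are not given, since some pairs share a site). The distance between the sites divided the pairs. Of 26 pairs 119 to 166 bp apart, 24 were opposite and 2 were the same. Of 26 pairs over 1 kb apart, 10 were opposite and 16 the same. The predominance of opposite directions at these short distances over the whole table was known when the pairs were counted, so it is described here for these genes and not put forward as independent evidence.

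The close opposite pairs placed a gain and a loss side by side in 24 genes. In Mroh1 the deposited differences were 38.1 and -37.0 points, 128 bp apart. Nlrp14 held -37.3 and 40.4 points, 150 bp apart. In Adcy9, which encodes an adenylyl cyclase, the values were -34.1 and 35.01 points, 131 bp apart. Hsf2bp held -33.4 and 38.6 points at 130 bp. In Tpcn2 a gain of 41.8 points was followed after 123 bp by a loss of -31.2 points. Zcchc24 and Zc3h13, genes for zinc-finger proteins, held -30.5 and 36.1 points and 25.8 and -35.5 points, 141 and 129 bp apart. The exceptions within this distance were Myh14 (31.0 and 26.4 points at 140 bp) and Bahcc1 (-30.1 and -41.7 points at 159 bp). Lrp1 and Lima1 each had a row of the same direction 132 and 114 bp away that was not itself isolated.

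Genes with 3 sites showed both patterns. Unc5a, which encodes a netrin receptor of axon guidance, held 3 gains in the deposited table, of 27.8, 27.8 and 37.0 points, with 36540 and 8015 bp between neighbours. Myh14, a nonmuscle myosin heavy chain gene, also held 3 gains, of 29.1, 31.0 and 26.4 points. Atp11a, a phospholipid flippase gene, held a close opposite pair (30.03 and -29.4 points at 125 bp) and a loss of -33.1 points 47570 bp further on. The remaining gene of this kind, 2900026A02Rik, is a predicted gene. Pairs far apart and of the same direction included both Chd5 losses, both Pitpnm2 gains and both Elfn2 gains. Opposite far pairs included those of Tgfa, which encodes an EGF receptor ligand (36.6 and -30.8 points), and of Frem1, a basement membrane gene (30.4 and -31.1 points).

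**Figure D4:**
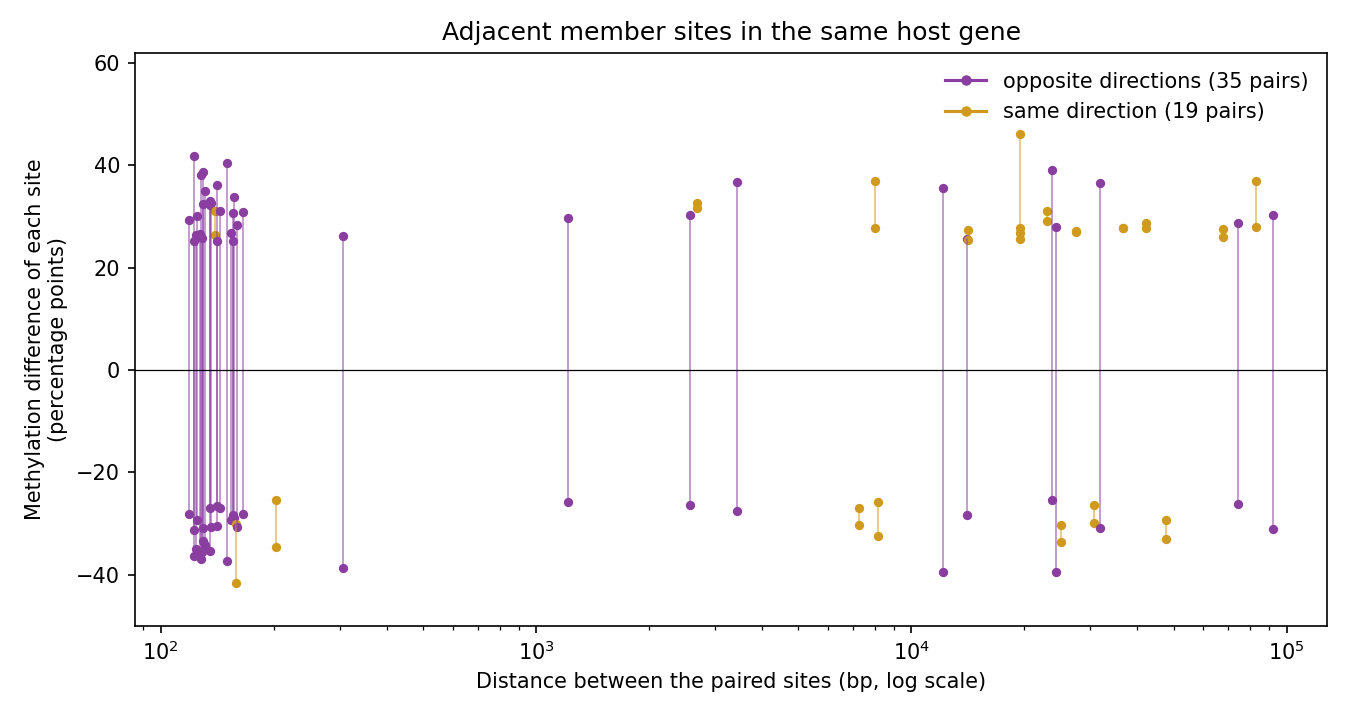
The 54 pairs of adjacent sites in the same host gene, drawn at their distance in bp (x axis, log scale) with the deposited difference of each site (y axis, percentage points) joined by a line; purple pairs have opposite and yellow pairs the same direction. Pairs under 180 bp cross zero in 24 of 26 cases, and pairs over 1 kb in 10 of 26.

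Host genes were grouped into 17 families by patterns in their symbols. The patterns are incomplete: genes of the same function with other symbols are in no family, and some genes with several roles are in only 1. Each count, share and split below is therefore that of the matched symbols and not of all genes with the function, and hosts of like function that the patterns missed are named beside it where found. The families took in 1658 of the 3951 mid-length genes and 158 of the 326 hosts, and the counts below are read against the 8.25% of all mid-length genes with a site. No family was tested for excess, and the exact intervals given cover the counting of genes only. Shares ran from 16.4% to 1.79%.

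Enzymes of phosphoinositide, lipid and cyclic-nucleotide signalling, which make or remove second messengers, held sites in 9 of 55 genes (16.4%, interval 7.77 to 28.8%). Of these 9 genes, 5 had gains alone, 3 losses alone and 1 (Adcy9) both. Pik3c3 and Pik3r5 carried the largest losses. Plch2, a phospholipase C gene, held 2 losses (-29.9 and -26.3 points) in the deposited table. Pik3ap1, the gene of the adaptor BCAP that couples B cell and Toll-like receptors to phosphoinositide 3-kinase, held 2 gains (27.9 and 26.8 points), and Synj2 held a gain of 30.3 points.

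Genes of Wnt, Hedgehog, BMP and growth-factor signalling and adaptors held sites in 12 of 79 cases (15.2%, interval 8.10 to 25.03%). Of these 12 genes, 8 had losses alone, 3 gains alone and 1 both. The matched symbols reach beyond the named pathways. They took in Sorl1, Sh3rf2 (-25.2 points) and Sh3tc2 (-25.3 points) with losses, and Lrp1 (26.4 points) and Lrp8 (27.9 points) with gains. Tcf7l2, which encodes the transcription factor at the end of the Wnt pathway, stood at -33.1 points in the deposited table, and Lrp5, a Wnt co-receptor gene, stood at -28.8 points. Sorl1, a sorting receptor gene, stood at -31.1 points at a position also within the noncoding gene Gm16214. Fgf2, a fibroblast growth factor gene, stood at -29.9 points. Its receptor gene Fgfr2 held a gain of 29.8 points and a loss of -25.9 points 1220 bp apart. Grb2, the adaptor that links growth-factor receptors to Ras, gained 30.1 points. Growth-factor hosts that were not matched included Ptn (27.5 points) and Tgfa with both directions (36.6 and -30.8 points). Rnf43 (-40.6 points), whose product acts on Wnt receptors, was counted among the ubiquitin genes. The larger number of losses is that of the matched symbols alone.

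Regulators of small GTPases, which switch proteins such as Ras, Rab, Rap and Arf on or off, held sites in 18 of 128 genes (14.1%, interval 8.55 to 21.3%). There were 8 genes with gains alone, 8 with losses alone and 2 with both, Arhgap31 and Dennd3. Dennd3, an activator gene for Rab proteins, held -35.9 and 26.6 points 127 bp apart. Cyth1, an Arf activator gene of leukocyte adhesion, stood at -32.8 points in the deposited table. Rab6b, which encodes a Golgi Rab protein and so a small GTPase itself, gained 31.7 points. Tbc1d30, which encodes a Rab GTPase-activating protein, gained 31.4 points. Hosts of like function that were not matched included Rap1a (-36.7 points), Rassf8 (-35.4), Rhoj (-32.4) and Rassf3 (-26.7) with losses. Ripor3, with a gain of 35.1 points, was not matched either. The even split is that of the matched symbols alone.

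Cytoskeleton and motor genes held sites in 14 of 102 cases (13.7%, interval 7.71 to 22.0%), of which 10 had gains alone and 4 losses alone. Besides Sptbn4, Myh14 and Myo10, these included the microtubule-associated protein gene Mapt (-33.3 points) and the septin gene Septin9 (33.2 points). Dnah1, an axonemal dynein gene, stood at -31.4 points in the deposited table, at a position also within the noncoding gene Gm35823. By site, the matched symbols had 13 gains and 4 losses. Cytoskeletal hosts that were not matched included Afap1 (-33.5 points), Pxn (-32.5), Eml1 (-30.1), Nin (-29.3), Mypn (-26.6), Coro1c (-25.5) and Krt78 (-25.4) with losses. Others were Tmod1 (32.1 points), Lima1 (29.3) and Myom1 (26.4) with gains, and Plec with both (36.7 and -27.6 points). The larger number of gains is that of the matched symbols alone.

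Adhesion and extracellular matrix genes held sites in 20 of 159 cases (12.6%, interval 7.86 to 18.8%), 9 with gains alone, 10 with losses alone and 1 with both. Among the matched symbols, the largest gains were those of Hspg2, Cdh6, Itgb3 and Unc5a. Igsf11, an immunoglobulin-superfamily adhesion gene, gained 36.0 points in the deposited table. Itgam, which encodes CD11b, an integrin chain of myeloid cells and of a subset of dendritic cells, stood at -35.9 points at chr7:128106836, 79.1% of the way along its span of 55.9 kb. Hosts of like function that were not matched included Fat2, whose gain of 37.1 points is larger than that of Unc5a, Heg1 (34.7 points) and Tnn (32.7 points). Others were Cldn14 (-47.6 points) and Pecam1 (-34.7 and -25.4 points) with losses, and Frem1 with both (30.4 and -31.1 points).

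Among nuclear receptors, Mediator subunits and lipid- and xenobiotic-handling proteins, 6 of 55 genes held a site (10.9%, interval 4.11 to 22.2%), 5 with a gain and 1 with a loss. The gains were in Med27, in the orphan receptor gene Esrrb (36.9 points), in the fatty acid ligase gene Acsl6 (30.4 points), and in Ppard (30.3 points) and Ppara (29.6 points), which encode peroxisome proliferator-activated receptors, known as targets of phthalate metabolites. The Ppard site lay at 95.4% and the Ppara site at 16.7% of the span from the 5′ end. Gstcd stood at -25.5 points in the deposited table. Among hosts that handle lipids or xenobiotics but were not matched, Scarb1 (-40.8 points) and the fatty acid elongase gene Elovl5 (-32.9 points) held losses. So did the P450 reductase gene Por (-28.9 points) and Srebf2, a transcription factor gene of sterol synthesis (-25.6 points). Far2, a fatty acyl-CoA reductase gene, held 2 gains (27.5 and 26.1 points). The lipid transporter gene Abca12, counted among the transporters, gained 28.3 points. The split of 5 to 1 is that of the matched symbols alone.

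Other transcription factors held sites in 17 of 159 genes (10.7%, interval 6.35 to 16.6%), 10 with losses alone, 5 with gains alone and 2 (Grhl2 and Tshz3) with both. Irf2, Grhl2, Tcf20, Tshz3, Foxp4 and Tcf7l2 had the largest differences among the matched symbols. By site, these had 12 losses and 7 gains. Transcription factor hosts that were not matched included Tfcp2, with a gain of 35.2 points that is larger than the Tcf7l2 loss, Trp73 (29.6 points), Myt1 (26.2 points), Tfcp2l1 (-30.9 points) and Lmx1b (-26.2 points).

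Genes of immune receptors, cytokines and their signalling held sites in 8 of 78 cases (10.3%, interval 4.53 to 19.2%), 5 with gains alone, 2 with losses alone and 1 with both. Bcl2, the gene of the survival factor BCL-2, gained 31.6 points in the deposited table at chr1:106688095. Tab3, whose product activates the kinase TAK1 downstream of Toll-like and interleukin-1 receptors, gained 30.7 points on the X chromosome. Grap2, a T cell adaptor gene, gained 29.3 points, and the inflammasome sensor gene Nlrp1a stood at -27.6 points. Pik3ap1 belongs here too. Some immune signalling genes were counted in other families. Irf2 (-49.2 points), among the transcription factors, and Traf3 (-29.3 points), among the ubiquitin genes, held losses, and Jak1, among the kinases, gained 36.0 points. Nlrp14, with the largest gain and loss among the 8 genes, is a member by its protein family and is known from germ cells.

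Protein kinases and their scaffolds held sites in 14 of 145 genes (9.66%, interval 5.38 to 15.7%), 9 with losses alone, 3 with gains alone and 2 with both. Jak1, the kinase gene of many cytokine receptors, gained 36.0 points at chr4:101156411 in the deposited table. Losses stood in Prkch, a protein kinase C gene (-32.9 points), in Nek6, a mitotic kinase gene (-30.8 points), in Braf, a kinase gene of the MAP kinase cascade (-30.6 points), and in Abl1, a tyrosine kinase gene (-30.4 points). Prkg2, a cyclic-GMP-dependent kinase gene, gained 30.8 points. Kinase hosts outside the matched symbols included Adck1 (30.9 points), Srpk2 (30.2 points), Dclk3 (28.7 points) and Mylk4 (28.7 points) with gains, Dclk2 with a loss (-29.6 points), and Alpk1 with both (30.7 and -28.3 points). The larger number of losses is that of the matched symbols alone.

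G-protein-coupled receptors and G proteins held sites in 6 of 66 genes (9.09%, interval 3.41 to 18.7%), 3 gains and 3 losses. The gains were in Gnas, which encodes the stimulatory G-protein alpha chain at an imprinted locus (35.2 points), in the adrenergic receptor gene Adra1b (34.3 points) and in the planar polarity gene Celsr1 (34.2 points). The losses were in Gng7 (-30.1 points), Grm4 (-26.4 points) and Gpr39 (-25.6 points) in the deposited table. For Gnas, the nearest other row of the table was a loss of -36.9 points 14758 bp away.

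Ion channels held sites in 7 of 88 genes (7.95%, interval 3.26 to 15.7%), 2 with gains alone, 3 with losses alone and 2 with both. The calcium channel gene Cacna1g gained 37.6 points and the cyclic-nucleotide-gated channel gene Cngb1 37.5 points in the deposited table. Clic5 stood at -33.2 points. The channel gene Tpcn2 (41.8 and -31.2 points) was not matched, and its gain is larger than that of any matched channel gene. Cacng2, an auxiliary subunit gene of AMPA receptors, held 28.7 and -26.2 points 74080 bp apart.

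Chromatin and DNA methylation regulators held sites in 9 of 114 genes (7.89%, interval 3.67 to 14.5%), 5 with gains alone and 4 with losses alone. The histone methyltransferase gene Ehmt1 gained 29.7 points in the deposited table and the corepressor gene Bcorl1 29.2 points. The chromatin remodeller gene Chd5 held 2 losses (-32.4 and -25.8 points) 8130 bp apart. Aff1, a gene for a subunit of transcription elongation complexes, stood at -26.4 points. Chromatin hosts that were not matched included Bahcc1 (-41.7 and -30.1 points), Kansl1 (-40.9 points), Paxip1 (-31.3 points) and Bicra (-25.9 points) with losses. Fbrsl1, with a gain of 29.1 points, was not matched either. The split of 5 to 4 is that of the matched symbols alone.

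RNA-binding, splicing and translation factors held sites in 6 of 92 genes (6.52%), 3 with gains alone and 3 with both directions in a close pair (Dhx57, Zc3h13 and Zcchc24). The genes with gains alone were Ago2, the small-RNA effector gene (30.8 points), Srpk2 and Tnrc6a (26.3 points). Zfr (39.6 points) and the splicing factor genes Cwc27 (-30.7 and 32.7 points) and Cwf19l2 (-29.4 and 26.8 points) were not matched. Transporters and pump ATPases held sites in 9 of 151 genes (5.96%), among them the glycine transporter gene Slc6a5 (-34.6 points), the nucleoside transporter gene Slc28a3 (30.4 points), the copper pump gene Atp7b (29.99 points), the amino acid transporter gene Slc7a7 (29.8 points) and the proton pump gene Atp6v0a4 (-28.9 points) in the deposited table. Ubiquitin ligases and deubiquitinases held sites in 7 of 156 genes (4.49%, interval 1.82 to 9.03%). Besides Rnf43 these included Siah3 (-34.0 points), Rnf165 (29.4 points), Traf3, which encodes an adaptor of innate immune signalling (-29.3 points), Usp32 (25.9 points) and Marchf3 (25.8 points). Hosts of like function that were not matched included Triml1 (-29.7 points) and Spsb1, whose gain of 41.8 points is larger than that of any matched gene. Of 56 protein phosphatase genes, 1 held a site (1.79%, interval 0.0452 to 9.55%), Ptpn3, with a loss of -27.9 points. Of the 9 mid-length genes among markers of B, T and NK cells, macrophages, plasmacytoid dendritic cells and erythroid cells, 1 held a site, the erythroid membrane gene Ank1 (26.6 points), and the others, such as Adgre1, Mertk, Pax5, Bcl11b, Cd247, Ralgps2 and Sptb, held none. The list leaves out myeloid genes that did hold a site, such as Itgam (-35.9 points) and the macrophage mannose receptor gene Mrc1 (-27.3 points). The cell makeup of the libraries was not tested.

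**Figure D5:**
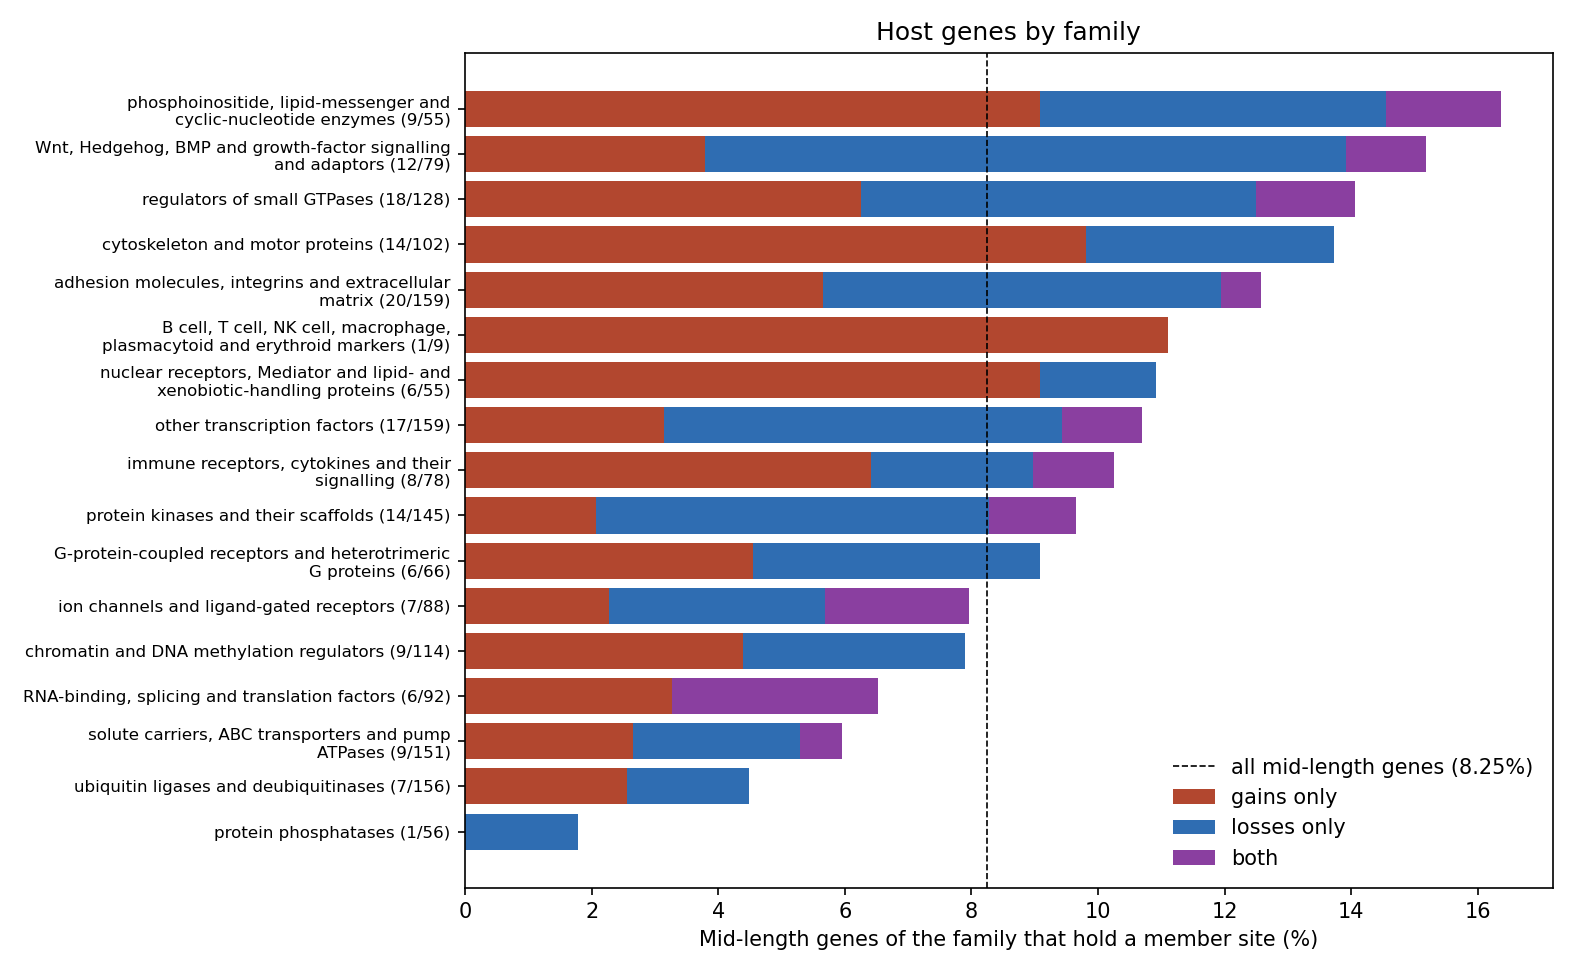
Share of the mid-length genes of each of 17 families that hold an isolated called site (x axis, %), split into genes with gains only, losses only and both, with the number of hosts and of genes in brackets. The dashed line is the 8.25% of all mid-length genes; the families run from 16.4% (9 of 55) to 1.79% (1 of 56).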

How the data were processed

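Methylation was measured by RRBS in 12 libraries. The authors deposited 1 table of called sites and its 2 parts by sign, with a p-value and a q-value for each site and a signed score, the difference in percentage points. The submitters' processing notes name methylKit and the build GRCm38 (mm10). For the aligner, coverage minimum, test and versions the sources used here give nothing. Sample titles follow more than 1 numbering scheme, and a batch behind them was not tested.

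From the table, sites were matched to spans of RefSeq GRCm38.p6 with Python 3.11.15, pandas 2.3.3 and scipy 1.17.1, after the rule was tested on simulated sites. A span's direction came from RefSeq start windows. Shares have exact Clopper-Pearson intervals at 95%. No test was made, because no value per library was used.

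Named genes were the hosts of the 15 largest gains and 15 largest losses, those with 3 or more sites, up to 6 per family by size, and the 4 sites nearest the minimum, leaving out predicted genes. Some genes that the rule names are not reported here. This took 108 genes, of whose 130 sites 99 had a q-value of 0. Genes named for overlaps, pairs, start windows, the bounds of the rule, as markers or as missed by a family's pattern were added after their values were seen. Families were symbol patterns, from which 20 symbols that matched by spelling alone were removed after the matches were seen. The set of sites and the lists were chosen with earlier results of these data known.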

Additional observations from a re-analysis of the deposited data

How the results depend on the processing

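Across the settings tried, the share of gains stayed between 49.8% and 51.4% in 10 of 11, the median absolute difference between 29.3 and 29.9 points in 9 of 11, the share of genes with a site between 6.88% and 8.39% in 9 of 11, and the hosts in a family between 133 and 196 in 9 of 12. With at least 30 points, the median was 33.4 points, 4.02% of mid-length genes held a site, 75 hosts were in a family and 82.4% of 17 pairs were opposite. With at least 40 points these were 42.6 points, 0.405% and 8 hosts, with 56.25% gains among 16 sites and no pair left. The medians and counts move because smaller differences are left out by construction, and the cause of the other moves was not tested. With spans of 75 to 150 kb, 79 hosts were in a family, since fewer genes enter. The share of opposite pairs, 64.8% of 54, was 45.8% with no other row within 250 bp and 43.5% with none within 1000 bp. Both of these remove the pairs closer than their bound. It was 39.3% without close opposite pairs, a setting that lowers the share by construction, since it keeps the close pairs of the same direction. The last setting, and the use of the others on the pairs, were chosen after seeing the data. Keeping 1 site per gene leaves no pair. That setting also cannot change the number of hosts. Its share of genes (8.25%) and its hosts in a family (158) were therefore fixed in advance, though it is counted among the settings above. No paired analysis was possible because no value per library was used, and no library could be left out for the same reason. The read depth behind each difference is unknown.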
